A study of Mus musculus with 4 samples.

Results

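The 10 genes described here are X-linked reproductive genes of the mouse: the homeobox genes Rhox5, Rhox6, Rhox9 and Rhox13, the Xlr genes Xlr3a, Xlr3b, Xlr4a and Xlr5a, and the germline genes Mageb16 and Taf7l. They were chosen by name. All 10 were found, by Entrez gene number, among the 24116 genes of the count table. RNA-seq had been done on embryonic stem cells of the strain labelled 12910la, grown in serum with LIF on gelatin, with 2 wild-type libraries and 2 libraries labelled knockout of Kdm2a. The knockout line is Kdm2a-/- by its protocol and is 1 clone, grown from GFP-sorted cells that had received a guide RNA. The titles of those libraries say knockout, whereas their genotype label says knocked down. The same protocol text stands with all 4 libraries. Whether the 2 libraries of a group are separate cultures is not stated, and p-values here speak only of the spread between libraries, which could be technical.

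KDM2A takes methyl groups from lysine 36 of histone H3 and binds unmethylated CpG dinucleotides through a zinc finger domain. The Rhox genes form a cluster of homeobox genes that are used mainly in testis, ovary, placenta and germ cells. The Xlr genes are a multicopy family related to the synaptonemal complex gene Sycp3. Many genes of this kind carry DNA methylation and are silent in somatic cells, and several of them are transcribed at low levels in cultured embryonic stem cells.

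Total counts lay between 18844246 and 19056529 per library. Knockout 1 stood closer to the wild-type libraries than to knockout 2: over 14194 tested genes, log2 levels of knockout 1 correlated with wild type 1 at r = 0.984, with wild type 2 at r = 0.978 and with knockout 2 at r = 0.952, across genes that are not independent replicates. Kdm2a itself (Entrez 225876) had 2899 and 3554 counts in wild type and 3710 and 4753 in the libraries labelled knockout. Its RNA was thus not lower there and gives no check of the label, so every direction below rests on the labels alone. Markers of embryonic stem cells were abundant in every library (8 of 8 tested, summed level 4900 to 6060 CPM, the count scaled to library size), while trophoblast markers summed to 68.9 to 128 CPM with Prl3d1 at 0.

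Of the 10 genes, 6 had a lower CPM in both libraries labelled knockout than in both wild-type libraries, and 0 had more in both. They were Rhox13, Xlr3a, Xlr3b, Xlr4a, Xlr5a and Taf7l. Over all tested genes, 12.7% had both knockout libraries below both wild-type libraries and 11.7% had them above. Among the 6 genes of the set that entered the test, 3 were lower in both knockout libraries and 0 higher. Over 18724 genes with a count, tested or not, 12.4% were lower in both. The Xlr genes among those that were lower share sequence with their copies, so they may not be separate observations. Rhox5, Rhox6, Rhox9 and Mageb16 had overlapping groups. Since the genes were proposed with earlier results of these data known, this count is a description.

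No gene of the 10 passed the test. At an adjusted p under 0.05, 0 of 14194 genes (0.0%) were called by edgeR's quasi-likelihood test, while 242 (1.7%) had an unadjusted p under 0.05, 116 of them (0.817%) lower in knockout. Of the 10 genes, Xlr3a alone was among those 116. The counts by DESeq2 and by the likelihood ratio test of edgeR were 2 (0.0141%) and 4 (0.0282%), again with none of the 10. A log2 fold change of -1 or lower was found for Xlr3a, Rhox13 and Taf7l, as for 358 of all tested genes (2.52%). The filter on low counts left 6 of the 10 in the test, namely Rhox5, Rhox9, Rhox13, Xlr3a, Mageb16 and Taf7l. Xlr3b, Xlr4a, Xlr5a and Rhox6 had too few reads and are given as counts.

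**Figure D1:**
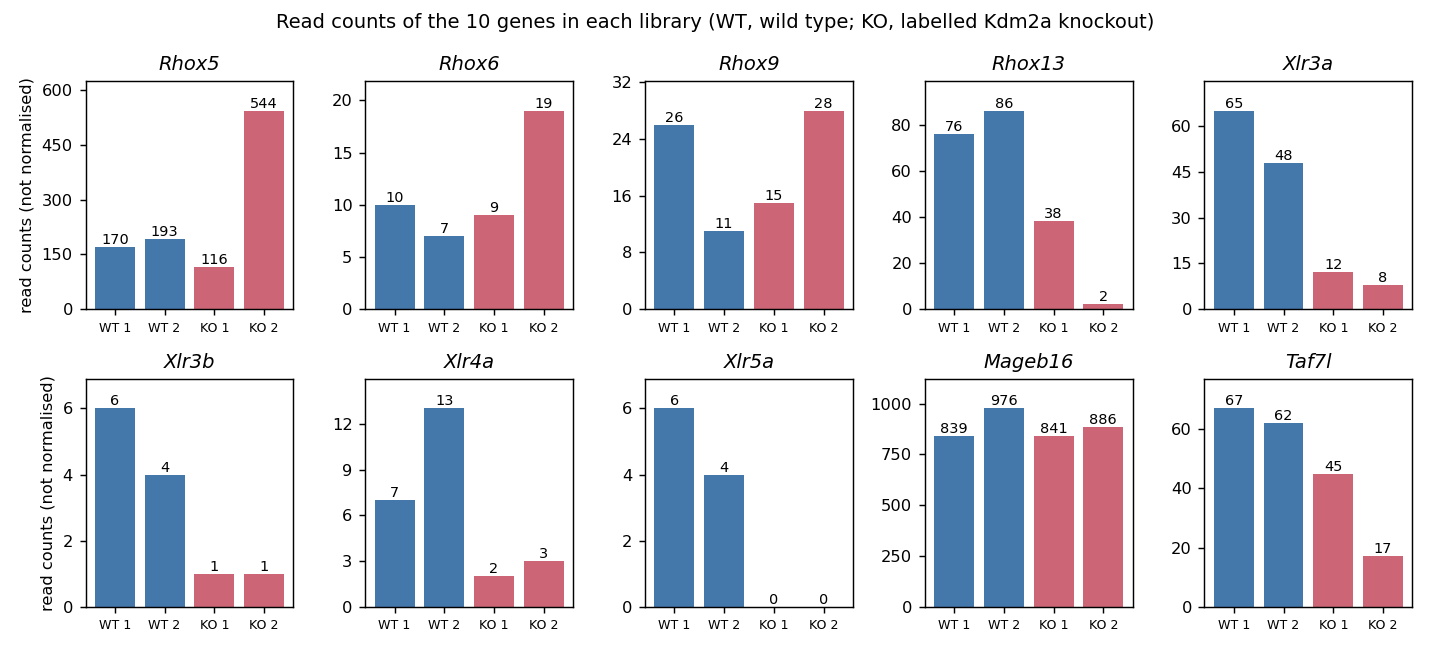
Read counts, not normalised, of the 10 genes in wild type 1 and 2 (blue) and in knockout 1 and 2 (red), with a scale of its own for each gene. The 4 Xlr genes are low in both libraries labelled knockout, Rhox5 and Rhox6 are highest in knockout 2, and Mageb16 lies between 839 and 976 throughout.

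The start regions of 5 of these genes are shown because KDM2A binds CpG dinucleotides, which are in capitals: Xlr3a and Xlr3b as near-identical copies, Rhox13 and Taf7l as genes lower in both libraries labelled knockout, and Mageb16 as a gene with overlapping groups. Each is the RefSeq window on GRCm38.p6 of 250 bases before to 50 after the start, written 5′ to 3′ on the strand of the gene: Xlr3a chrX:73097046-73097345 (minus strand), Xlr3b chrX:73191929-73192228 (plus strand), Rhox13 chrX:38120590-38120889 (plus strand), Taf7l chrX:134476441-134476740 (minus strand) and Mageb16 chrX:79671386-79671685 (minus strand). Windows were found for 8 of the 10 genes, all but Rhox6 and Rhox9.
Xlr3a: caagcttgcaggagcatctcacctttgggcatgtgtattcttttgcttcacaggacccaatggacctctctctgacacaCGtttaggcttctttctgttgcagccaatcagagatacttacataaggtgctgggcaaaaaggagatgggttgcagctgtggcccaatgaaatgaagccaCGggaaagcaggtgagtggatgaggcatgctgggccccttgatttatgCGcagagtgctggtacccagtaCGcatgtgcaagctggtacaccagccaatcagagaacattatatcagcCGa
Xlr3b: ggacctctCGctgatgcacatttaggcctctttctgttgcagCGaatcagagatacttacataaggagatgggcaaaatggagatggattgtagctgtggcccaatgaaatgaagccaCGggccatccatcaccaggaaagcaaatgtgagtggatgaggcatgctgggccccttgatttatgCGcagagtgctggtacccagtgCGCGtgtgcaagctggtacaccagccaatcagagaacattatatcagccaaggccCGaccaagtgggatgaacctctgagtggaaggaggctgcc
Rhox13: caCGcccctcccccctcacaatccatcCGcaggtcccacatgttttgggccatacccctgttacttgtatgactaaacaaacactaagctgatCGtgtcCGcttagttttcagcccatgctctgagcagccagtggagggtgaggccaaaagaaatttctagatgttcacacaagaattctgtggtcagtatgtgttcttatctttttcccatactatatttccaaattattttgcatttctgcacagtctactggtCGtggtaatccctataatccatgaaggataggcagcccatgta
Taf7l: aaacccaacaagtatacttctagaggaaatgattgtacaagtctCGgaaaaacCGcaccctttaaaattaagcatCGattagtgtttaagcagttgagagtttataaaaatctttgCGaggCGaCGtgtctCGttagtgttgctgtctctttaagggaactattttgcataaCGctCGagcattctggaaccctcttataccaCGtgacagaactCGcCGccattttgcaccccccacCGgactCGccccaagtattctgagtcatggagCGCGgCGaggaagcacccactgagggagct
Mageb16: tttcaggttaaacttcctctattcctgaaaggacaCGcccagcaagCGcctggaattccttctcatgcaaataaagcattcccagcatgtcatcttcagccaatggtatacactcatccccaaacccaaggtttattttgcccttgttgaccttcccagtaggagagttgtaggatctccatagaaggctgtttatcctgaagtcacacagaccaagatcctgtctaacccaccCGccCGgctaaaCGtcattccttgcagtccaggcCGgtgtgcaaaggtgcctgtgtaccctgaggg

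The windows of Taf7l and Xlr5a held the most CpG and the other windows held near the usual number. The counts were 17 in Taf7l, 16 in Xlr5a, 8 in Xlr4a, 7 in Xlr3b, 6 in Mageb16 and 5 each in Xlr3a, Rhox5 and Rhox13, where the median of 32851 windows was 7. The 6 genes lower in both libraries labelled knockout thus held 5 to 17 CpG, and Rhox5 and Mageb16, whose groups overlapped, held 5 and 6. No relation of CpG number to the differences was tested. The windows of Xlr3a and Xlr3b were 93.7% identical over 239 aligned bases.

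Motifs were searched on both strands. The octamer ATGCAAAT, which OCT4 and other POU factors bind, matched once in Mageb16, beginning 186 bases before the start (position -186), and in 1.74% of all windows. The E-box CACGTG, bound by MAX and MGA of the germline-gene repressor PRC1.6, matched once in Taf7l, at position -49, and in 7.15% of all windows. The letters CCAATCA, as bound by NF-Y, matched in Xlr3a (positions -147 and 23), Xlr3b (-21) and Xlr4a (-44), and in 7.82% of all windows. The E2F motif TCCCGC matched in 0 of the 8 windows and in 6562 of all 32851 windows. A match is a description of the letters and not a bound site.

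Among the Xlr genes, Xlr3a gave the clearest difference. Xlr3a (Entrez 22445, GRCm38.p6 chromosome X, 73086293 to 73097095) encodes a nuclear protein of the Xlr family. Wild type 1 and 2 held 65 and 48 of its reads, knockout 1 and 2 held 12 and 8. Both libraries labelled knockout thus lay far below both wild-type libraries and close to each other. The wild-type mean was 2.94 ± 0.642 CPM (SD, n = 2), the knockout mean 0.533 ± 0.132 CPM (SD, n = 2). The log2 fold change was -2.45 (SE 0.62), with adjusted p = 1.00 by the edgeR quasi-likelihood test and adjusted p = 0.475 by the likelihood ratio test. It stood at rank 11 of 14194 genes by p-value, and 31 genes (0.218%) had a log2 fold change of -2 or lower. Without any 1 of the libraries, or under another scaling, filter or test, its log2 fold change lay between -2.73 and -2.21.

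The other Xlr genes of the set had few reads. Xlr3b, whose maternal copy is the one mainly used in mouse brain, had 6 and 4 counts in wild type and 1 and 1 in knockout, and the 95% exact interval of knockout as a share of wild type ran from 2.13% to 93.7% (counting error only). Xlr4a had 7 and 13 counts in wild type and 2 and 3 in knockout, 24.9% of wild type with an interval of 7.32% to 68.5%. Xlr5a had 6 and 4 counts in wild type and 0 and 0 in knockout. With 3 counts per library as the limit that a count of 0 allows, its level was 1.67-fold lower or more. That limit takes the wild-type counts as exact. The 95% exact upper limit was 88.6% of wild type for knockout 1 and 89.5% for knockout 2. For each of these 3 genes the groups did not overlap, as for 16.6% of the 1932 genes with 10 to 45 summed counts in the same direction.

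Reads of these genes cannot be assigned with certainty. The longest coding transcripts of Xlr3a and Xlr3b were 98.8% identical over 1549 aligned bases, those of Xlr4a and Xlr4b 98.9%, and those of Xlr5a and Xlr5b 99.4%. By contrast Xlr3a and Xlr4a were 71.0% identical. The libraries were read at 50 bases, and 44.8% of the windows of 50 bases in Xlr3a transcripts also occurred in a transcript of another gene. That share was 56.6% for Xlr3b, 77.7% for Xlr4a and 84.2% for Xlr5a. How reads with several matches were counted is not given in the sources used here.

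**Figure D2:**
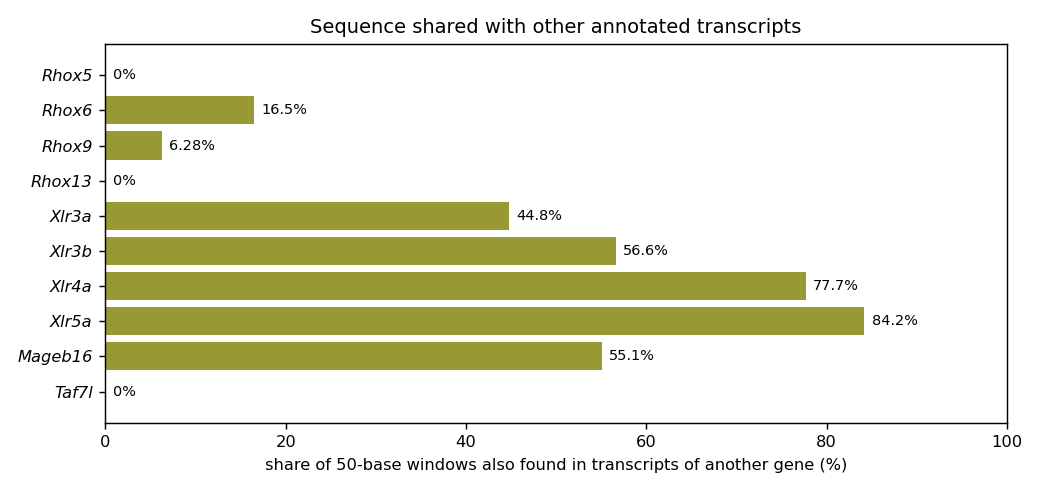
Share of all windows of 50 bases in the GENCODE M21 transcripts of each gene that also occur, on either strand, in a transcript of another gene. The Xlr genes and Mageb16 lie between 44.8% and 84.2%, while Rhox5, Rhox13 and Taf7l are at 0%.

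Summing the copies sets aside how reads were divided among them. Xlr3a, Xlr3b and Xlr3c together had 74 and 68 counts in wild type and 14 and 11 in knockout, a log2 fold change of -2.46 (SE 0.57, adjusted p = 1.00, edgeR quasi-likelihood test). The Xlr4 copies had 12 and 18 against 3 and 5 counts, with a log2 fold change of -1.83 (SE 0.78, adjusted p = 1.00, the same test). The Xlr5 copies had 9 and 4 against 1 and 0 counts. All 9 genes together had 95 and 90 counts in wild type and 18 and 16 in knockout, 18.9% of the wild-type level. Leaving out Xlr3a, the remaining 8 copies had 30 and 42 against 6 and 8 counts, 20.1% of wild type, so the sum was lower without Xlr3a too, although reads of the copies may be exchanged.

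Other relatives of the family were measured beside it. Xlr, the founding gene on another part of the X chromosome, had 2 and 7 counts in wild type and 0 and 0 in knockout. By the same limit, with wild-type counts taken as exact, it was 1.51-fold lower or more. The 95% exact upper limit was 101% of wild type for knockout 1 and 102% for knockout 2, so neither library alone shows a lower level. The gene 1700013H16Rik, which RefSeq also lists as Xlr6 and which was picked after its values were seen, had 34 and 40 counts against 1 and 0. That is 1.35% of wild type (95% exact interval 0.0337% to 7.75%). The adjusted p of 1700013H16Rik was 1.00 with edgeR's quasi-likelihood test and 0.526 with DESeq2, but 0.000169 with the likelihood ratio test. The autosomal Sycp3, which encodes an axis protein of meiotic chromosomes, did not share this pattern, with 200 and 166 counts against 149 and 246 and a log2 fold change of 0.16 (SE 0.42).

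The tested genes that flank the Xlr3 to Xlr5 cluster also leaned lower, by less. Of the 5 nearest on each side, 7 had a negative and 3 a positive log2 fold change, the median was -0.38, and 5 were below wild type in both libraries labelled knockout (12.7% of all tested genes were). The range ran from -1.04 for Bgn, the matrix proteoglycan biglycan, to 0.15 for Cetn2, a centrin. Pnma5, the nearest before the cluster at 34.6 kb, had 526 and 464 counts in wild type, 146 in knockout 1 and 442 in knockout 2. Scaled to library size its groups overlapped, with knockout 1 alone below wild type. F8a, inside the cluster, was at -0.28 (SE 0.52). Over 494 tested genes of the X chromosome the median log2 fold change was 0.04.

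Within the Rhox cluster the genes did not share a direction. Rhox13 (Entrez 73614, chromosome X, 38120840 to 38129966), a homeobox gene of fetal male germ cells, had 76 and 86 counts in wild type, 38 in knockout 1 and 2 in knockout 2. Both libraries labelled knockout were lower, but they differed widely from each other. Knockout 1 stood at 46.6% of the wild-type level (95% exact interval 31.8% to 66.7%) and knockout 2 at 2.48% (0.297% to 9.09%, counting error only). The log2 fold change was -2.0 (SE 1.01, adjusted p = 1.00, edgeR quasi-likelihood test). Without knockout 1, which leaves knockout 2 alone in its group, it was -5.18, and without knockout 2 the value was -1.08. No transcript of another gene held a window of Rhox13, so copies do not touch this count. The annotated genes Gm39506, Gm14685 and Gm8792 overlap Rhox13, Xlr5a and Mageb16 and have no entry in the count table. The strand setting of the counting is not known, so whether reads of theirs entered these counts cannot be told.

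Rhox5 stood above wild type in 1 library labelled knockout and below it in the other. Rhox5 (Entrez 18617, chromosome X, 37754608 to 37808878), also known as Pem, is the founding Rhox gene, expressed in Sertoli cells, extraembryonic tissue and embryonic stem cells. It had 170 and 193 counts in wild type, 116 in knockout 1 and 544 in knockout 2. Knockout 1 was thus the lowest of the 4 libraries and knockout 2 the highest. The means were 9.45 ± 0.795 CPM (SD, n = 2) and 18 ± 16.9 CPM (SD, n = 2), and the log2 fold change was 0.93 (SE 0.68, adjusted p = 1.00, edgeR quasi-likelihood test). Without knockout 2 its direction turned, to -0.64. Of the endoderm markers, whose tissue also uses Rhox5, 9 were listed and Afp was at 0. Their summed level was 13.8 and 6.59 CPM in wild type against 10.8 and 18 CPM in knockout. Of the 5 tested, 4 had a positive and 1 a negative log2 fold change. Gata4, the most abundant, had 134 and 50 counts against 75 and 117. The lowest p-values were those of Sox7, with 5 and 12 counts against 11 and 60, and Dab2, with 15 and 19 against 22 and 35. The part of the endoderm markers in the Rhox5 level was not tested.

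Rhox6 and Rhox9, the placental homeobox genes Psx1 and Psx2, were barely detected. Rhox6 had 10 and 7 counts in wild type and 9 and 19 in knockout. Rhox9 had 26 and 11 counts in wild type and 15 and 28 in knockout, a log2 fold change of 0.27 (SE 0.73, adjusted p = 1.00, edgeR quasi-likelihood test). Both genes were highest in knockout 2 and both had overlapping groups. Their longest coding transcripts were 91.5% identical over 816 aligned bases, and they shared windows of 50 bases only with each other, 16.5% of the windows of Rhox6 and 6.28% of those of Rhox9.

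Few reads were counted for the other genes of the cluster. Of 31 Rhox genes in the table, 22 had no count in any library, and the 21 Rhox2, Rhox3 and Rhox4 copies held 3 reads in all 4 libraries together. Of the windows of 50 bases in these 21 copies, 44.7% (Rhox2d) to 100.0% (Rhox2e) also occurred in another gene, so a count of 0 may also be reached where multiply matching reads were dropped. Rhox1 had 37 and 36 counts in wild type and 28 and 14 in knockout (log2 fold change -0.76, SE 0.62). Rhox10 had 36 and 48 in wild type, 57 in knockout 1 and 10 in knockout 2 (-0.30, SE 0.81). Rhox10 to Rhox13 together had 112 and 134 counts in wild type, 95 in knockout 1 and 12 in knockout 2. Rhox5 to Rhox9 together had 206 and 212 counts in wild type, 140 in knockout 1 and 591 in knockout 2. In knockout 2, Rhox1 at the start of the cluster and Rhox10 to Rhox13 at its end had fewer counts than in either wild-type library, and Rhox5 to Rhox9 between them had more. In knockout 1 all 3 were below both wild-type libraries. These sums rest on few genes. Rhox10 itself was highest in knockout 1, so the lower sum of Rhox10 to Rhox13 there came from Rhox13. Of the 591 counts of Rhox5 to Rhox9 in knockout 2, 544 were of Rhox5. Around the cluster, the 10 nearest tested genes had log2 fold changes from -0.30 to 0.42 with a median of 0.09.

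**Figure D3:**
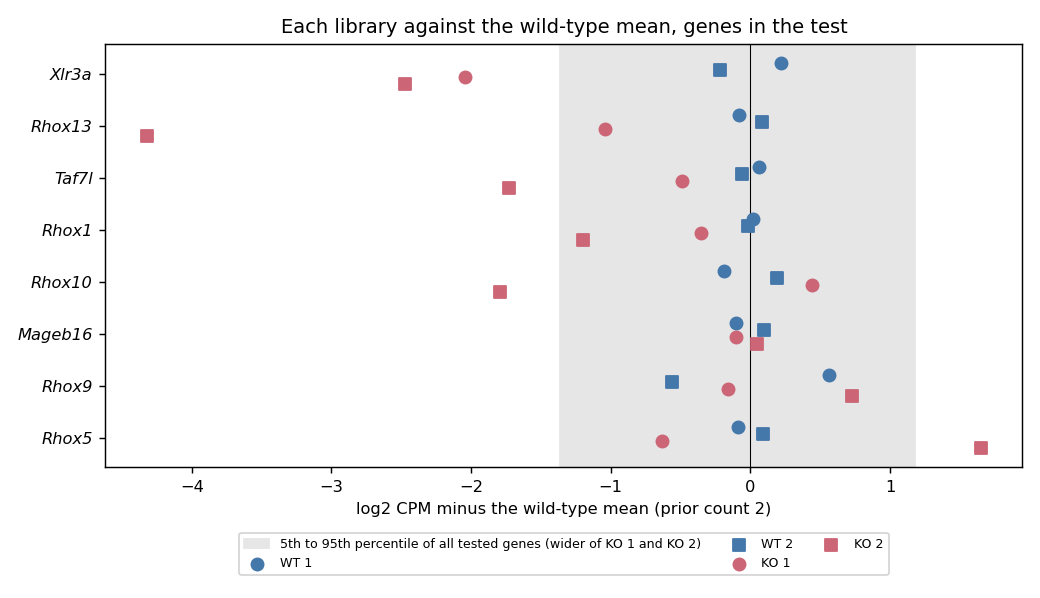
Log2 CPM (prior count 2) of each library minus the wild-type mean, for 6 genes of the set and for Rhox1 and Rhox10. The grey band spans the percentiles 5 to 95 of all tested genes in the more variable library, knockout 2 (-1.36 to 1.18). Of the genes shown, only Xlr3a has both libraries labelled knockout outside it. The same percentiles of knockout 1 are narrower, -0.64 to 0.55. With each library set against its own percentiles, Rhox13 (-1.04 and -4.32) is outside in both as well.

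Taf7l had fewer reads in both libraries labelled knockout. Taf7l (Entrez 74469, chromosome X, 134460116 to 134476505) is a paralog of the TFIID subunit TAF7 that acts in male germ cells. It had 67 and 62 counts in wild type, 45 in knockout 1 and 17 in knockout 2. The groups did not overlap, and knockout 2 was the lowest. The means were 3.36 ± 0.202 CPM (SD, n = 2) and 1.64 ± 1.00 CPM (SD, n = 2), with a log2 fold change of -1.03 (SE 0.62, adjusted p = 1.00, edgeR quasi-likelihood test), and without knockout 2 it was -0.51. Taf7l2, a related gene on chromosome 10, had 27 and 24 counts against 10 and 7 (-1.53, SE 0.65). The 18 tested genes of a list of TFIID subunits and their relatives, Taf7l not included, did not lean that way, with 11 positive and 7 negative values and a median of 0.08. Taf1, the most abundant, was at 0.13 (SE 0.24). None of the 18 passed the test. The lowest p-values were those of Taf9 at -0.54 (SE 0.22) and Taf11 at 0.43 (SE 0.28).

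Mageb16, a MAGE family gene of testis and embryonic stem cells, was the most abundant of the 10 and the most even. Mageb16 (Entrez 71967, chromosome X, 79623231 to 79671435) had 839 and 976 counts in wild type and 841 and 886 in knockout. All 4 libraries lay within the wild-type range. The means were 47.2 ± 4.78 CPM (SD, n = 2) and 46.3 ± 3.37 CPM (SD, n = 2), and the log2 fold change was -0.03 (SE 0.24, adjusted p = 1.00, edgeR quasi-likelihood test). Of its windows of 50 bases, 55.1% also occurred in the pseudogenes Mageb16-ps1 or Mageb16-ps2, and Mageb16-ps1 had 10 and 15 counts against 6 and 9. By profile over the 4 libraries (Euclidean distance of centred log2 CPM, among 10776 genes of at least 5 CPM), the nearest genes were Ptpn2, Srsf4, Zscan18, Usp42 and Polr3d, at distances of 0.0291 to 0.0374. The 9 MAGE genes outside the cancer-testis group had 6 positive and 3 negative values and a median of 0.13, and 0 passed the test. Maged1, the most abundant, was at 0.07 (SE 0.23). The lowest p-values were those of Magel2 at 2.26 (SE 0.93) and Tro at 0.3 (SE 0.23). Magel2 had 1 and 7 counts in wild type and 15 and 23 in knockout.

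On a scale of CPM per kilobase of annotated exon, the wild-type levels ran from Mageb16 (mean 24.3) and Rhox5 (12.5) through Rhox13 (4.81), Taf7l (1.5) and Xlr3a (0.727) to Rhox6 (0.438), Rhox9 (0.388), Xlr4a (0.339), Xlr5a (0.141) and Xlr3b (0.0689). Rhox6, Rhox9 and Xlr4a had overlapping wild-type ranges (0.359 to 0.517, 0.229 to 0.546 and 0.238 to 0.439), and no other neighbours in that order overlapped. Xlr5a and Xlr3b had the same wild-type counts, 6 and 4, so their order rests only on exon lengths of 1843 and 3780 bases. In knockout 2 the order of the first genes turned, with Rhox5 at 39.7 above Mageb16 at 25 and Rhox13 at 0.126. Exon lengths came from GENCODE M21 and count retained introns, which lowers the Xlr3 values.

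Other germline genes from lists chosen with earlier results known showed lower values more often than higher ones. Of 43 listed X-linked testis and cancer-testis genes 39 were in the table, 15 had no count and 8 were tested, of which 7 had a negative and 1 a positive log2 fold change (49.5% of all tested genes were negative). The median was -1.09, against 0.0 over all tested genes, and 6 were lower in both libraries labelled knockout, as were 12.7% of all tested genes. None passed the test. Nxf3, a relative of the RNA export factor NXF1, had 136 and 192 counts against 43 and 65 (-1.55, SE 0.48). Esx1, a homeobox gene of placenta and testis, had 156 and 182 counts against 92 and 32 (-1.42, SE 0.56). Tex11, a meiotic recombination gene, was the most abundant and had overlapping groups, with 155 and 214 against 193 and 57 counts.

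Of 30 tested autosomal germline genes that are silenced by promoter methylation or PRC1.6, 26 were negative and 4 positive, with a median of -0.57. Both libraries labelled knockout were below wild type for 17 of them (12.7% of all tested genes) and above for 2 (11.7% of all tested genes), and 0 passed the quasi-likelihood test. This list was known to lean lower in these data and is no independent support. Stag3, a meiotic cohesin subunit and the most abundant, was at -0.57 (SE 0.23). The lowest p-values were those of Tuba3a, a testis alpha-tubulin, at -1.55 (SE 0.27, adjusted p = 0.0149 with DESeq2 and 0.0204 with the likelihood ratio test), and Sohlh2, a germ cell transcription factor, at -1.36 (SE 0.26).

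Values of a list of repressors of such genes lay mostly above 0. The list also holds the DNA demethylation genes Tet1 and Tet2, so its counts are not of repressors alone. Of 26 tested, 21 had a positive and 5 a negative log2 fold change (49.5% of all tested genes were negative), with a median of 0.11, and 0 passed. Both libraries labelled knockout were above wild type for 3 of the 26 (11.7% of all tested genes) and below for 0 (12.7%). Trim28, the corepressor of zinc finger proteins and the most abundant, was at 0.12 (SE 0.19). The Kdm2a paralog Kdm2b was at 0.54 (SE 0.28) and Mga, the MAX partner of PRC1.6, at 0.41 (SE 0.33). Mga had overlapping groups, with 5145 and 6412 counts in wild type, 5221 in knockout 1 and 9614 in knockout 2.

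Markers of other cells and of the sex chromosomes were read beside these genes, and their part in the results was not tested. Of 9 listed X inactivation and Y-linked genes 8 were tested and 0 passed, with 6 positive and 2 negative values and a median of 0.36. Only Kdm5d was below wild type in both libraries labelled knockout (12.7% of all tested genes were), and 0 were above (11.7%). Xist, the RNA that coats an inactive X chromosome, had 93 and 197 counts in wild type and 150 and 545 in knockout, highest in knockout 2 as Rhox5 was. Kdm5d, a Y-linked histone demethylase, had 38 and 60 counts against 6 and 14, and Rlim, an activator of Xist, was the most abundant at 0.37 (SE 0.34). Markers of 2-cell-like cells, which transcribe many germline genes, summed to 12.1 and 22.2 CPM in wild type and 22.8 and 5.33 CPM in knockout, with Zscan4d at 79, 181, 154 and 34 counts. In knockout 1 their sum was close to that of wild type 2, and in knockout 2 it was below both wild-type values. Markers of primordial germ cells summed to 271 and 261 CPM against 265 and 220 CPM, mostly Kit (175 and 155 against 170 and 120 CPM). Of the 7 tested, 2 had a positive and 5 a negative log2 fold change. Nanos3 had 6 and 9 counts against 19 and 26, and Dppa3 44 and 40 against 29 and 4. Fibroblast markers summed to 45.5 and 20.7 against 36.6 and 20 CPM, mostly Thy1 (36.5 and 16.4 against 31.0 and 17.8 CPM), with Lum at 0. In bulk libraries, fewer cells of a type and less RNA per cell cannot be told apart.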

How the data were processed

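RNA-seq of 4 libraries was analysed. The authors deposited raw read counts per gene, and the tools were HISAT2 and featureCounts on mm10, per the submitters' processing notes. For the annotation, the strand setting and multiply matching reads, these sources state nothing. Of 24116 Entrez numbers, 24061 matched a RefSeq GRCm38.p6 symbol and the other 55 held 0.0334% to 0.0439% of counts. A count of 0 allows up to 3 counts, or 0.157 to 0.159 CPM.

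Groups came from the sample titles. The test of the counts was that of edgeR 4.0.16 under R 4.3.3 (filterByExpr, TMM scaling, quasi-likelihood F test on genotype, Benjamini-Hochberg over all 14194 tested genes, threshold 0.05). An SE was computed as the size of the log2 fold change over the root of F. Log2 CPM used a prior count of 2. DESeq2 1.42.0, limma-voom (limma 3.58.1), other scalings and filters, a replicate block, summed copies and each library left out were alternatives. Intervals of count ratios are exact conditional binomial at 95% and cover counting error only, since PCR copies count as reads.

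The genes and lists were chosen with earlier results of these data known. The naming rule took every gene of the set and other Rhox and Xlr genes with at least 20 summed counts. From each list it took the most abundant member and the 2 lowest p-values. It also took the 5 nearest tested genes per side of each locus. For the embryonic stem cell, trophoblast, 2-cell-like and fibroblast markers, not every such gene is named here. The genes around Mageb16 and Taf7l are not described. Genes outside the rule are named as values of copies or relatives. The block fit and its pairing check are in the closing section. Shared windows came from GENCODE M21 transcripts.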

Additional observations from a re-analysis of the deposited data

How the results depend on the processing

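All alternatives were planned. The count of 0 genes called held under the 3 other scalings, both other filters, limma-voom, summed copies, the threshold of 0.01 and the replicate block. DESeq2 called 2 genes and the likelihood ratio test 4, and with 1 library left out the count ran from 0 to 91 (91 without knockout 1, 8 without knockout 2). Those fits tested 14570 to 14714 genes, and in them the lone library of a group was assumed to vary like the pair of the other group. Of the 10 genes, 0 were called in each of these settings apart from Rhox13 without knockout 1, so that count ran from 0 to 1 with a library left out. The count of 6 genes whose groups did not overlap held under every scaling, filter and test, and was 5 of 9 units with copies summed. With a library left out it ran from 7 to 9, of which 6 to 7 were lower in knockout. Groups separate more easily with fewer libraries, and the share over all genes was not computed there. Those counts therefore cannot be set against the 6.

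The log2 fold change of Rhox5 reversed without knockout 2 (-0.64), that of Rhox9 without wild type 2 (-0.22) and without knockout 2 (-0.29), and that of Mageb16 without wild type 2 (0.09) and without knockout 1 (0.04). With a library left out these 3 ran from -0.64 to 1.66, from -0.29 to 1.02 and from -0.13 to 0.09. Xlr3a, Rhox13 and Taf7l kept their direction in all 15 alternatives each, between -2.73 and -2.21, -5.18 and -1.08, and -1.84 and -0.51. Subtracting the X chromosome median of 0.04 turned no direction.

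The block on the replicate number called 0 genes and 0 of the 10. The difference of wild type 1 and 2 correlated with that of knockout 1 and 2 at r = 0.368 over 7707 genes of at least 20 CPM, but with 2 pairs the libraries share only a number. Depth limits Xlr3b, Xlr4a, Xlr5a and Rhox6, which hold 10 to 45 counts in all.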
